A study of Rorippa islandica and Rorippa pyrenaica with 24 samples.

Results

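The late risers of submerged *R. islandica* were genes whose transcripts were at least doubled in leaves between the first and the second day under water, while the leaves of control plants in air kept nearly the same level. The genes were chosen by their mean level in the 3 libraries of each *R. islandica* group, in counts scaled to a common library total (CPM), with 0.5 CPM added, and a gene had to reach a mean of 2 CPM after 48 h of submergence. In the controls the log2 ratio of 48 h over 24 h had to lie within 0.5 of 0. These conditions were met by 176 of 30646 genes.

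RNA-seq was performed on polyadenylated RNA from young leaves of *R. islandica* and its relative *R. stylosa*, which were submerged in transparent boxes for 48 h or 24 h, or kept in empty boxes as controls and harvested at the same times. Each species, treatment and time was covered by 3 libraries, 24 in all, and each library held between 24127592 and 66692318 counts. *R. islandica* was raised from seed, whereas *R. stylosa* was propagated vegetatively, separately for each replicate. The reads of both species were assigned to the *R. islandica* transcriptome, so that a low level in *R. stylosa* cannot be told apart from a sequence that differs between the species. Libraries were bulk leaf RNA, in which fewer cells of a type and less RNA per cell cannot be told apart.

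Complete submergence slows gas exchange between the leaf and its surroundings. Ethylene accumulates in the tissue, oxygen and carbon dioxide become limiting, and sugars are consumed. Plants answer within hours with new transcription, and part of that response is transient, whereas other transcripts build up only as the stress goes on. The gene identifiers came without names or functions, so the late risers are described by their levels and orthogroups and no role can be given to any of them. For the same reason leaf markers were not looked up.

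Because measured *R. islandica* values chose the genes, their values in that species are a description and were not tested. Among the 16047 genes with at least 2 CPM in submerged *R. islandica* at 48 h, 183 were at least doubled over 24 h, and 7 of these were left out by the limit on the controls. The log2 ratio of submerged 48 h over submerged 24 h (the rise) ranged up to 4.16 among the late risers, with a median of 1.22, beside a median of 0.08 over all 20609 genes with enough counts to test in this species. In 46 late risers the rise was below 1.1, and in 15 it was 2 or more. The gene just inside the limit had a rise of 1.001, the gene just outside 0.9988, and 82 genes lay between 0.9 and 1. The control ratio of 48 h over 24 h had a median of -0.03 among the late risers.

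Levels covered a wide range. In submerged *R. islandica* at 48 h, 70 late risers averaged between 2 and 10 CPM and 21 averaged more than 100 CPM. Together the late risers took 0.774% to 0.911% of all counts in submerged *R. islandica* libraries at 48 h and 0.320% to 0.411% at 24 h, against 0.493% to 0.686% in the 6 control libraries. Their joint share thus lay below that of the controls on the first day and above it on the second. In *R. stylosa* the same genes took 0.558% to 0.586% of counts in submerged leaves at 48 h and 0.425% to 0.508% at 24 h, against 0.656% to 0.925% in controls. There the joint share was higher at 48 h than at 24 h under water, without overlap, but stayed below every control library. Abundant genes weigh most in such a share. Gene by gene, the median log2 ratio of submerged over control at 24 h in *R. islandica* was 0.52, with 60.8% above 0, beside 55.7% of all genes tested. In *R. stylosa* it was 0.41 at 48 h and 0.10 at 24 h. There 61.9% and 55.1% were above 0, beside 62.6% of all genes tested at each harvest.

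The largest rises rested on a single library. The gene with the largest rise had 35.5, 0.0327 and 0.149 CPM in submerged *R. islandica* at 48 h, against 0.123, 0.273 and 0.182 CPM at 24 h. The next had 26.6, 0.325 and 0.427 CPM at 48 h, against 0.247, 0.225 and 0.355 CPM at 24 h. The third had 28.9, 0.354 and 0.294 CPM at 48 h, against 0.576, 0.540 and 0.246 CPM at 24 h. All 3 were high in replicate 1 alone, and the other submerged libraries at 48 h overlapped those at 24 h.

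Across all 30646 genes, 4 were at least 10 times higher in 1 *R. islandica* library than in both others of its group (CPM + 0.5). All 4 were late risers, all were high in submerged 48 h replicate 1, and all were among the 10 largest rises. A further measure gave the same library: 7 late risers reached 2 CPM at 48 h in 1 library only, which was replicate 1 in all 7, while 16 reached it in 2 libraries and 153 in all 3. Without this library 205 genes met the rule, 146 of them late risers, and the 3 largest rises were gone. What set this library apart was not tested.

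Most late risers were higher at 48 h in every replicate. In 157 of the 176, all 3 submerged *R. islandica* libraries at 48 h were above all 3 at 24 h, which held for 26.4% of all genes tested. The rule had used these libraries, so nothing is read from the difference. When each of the 12 libraries was left out in turn, 79 late risers met the rule every time.

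**Figure D1:**
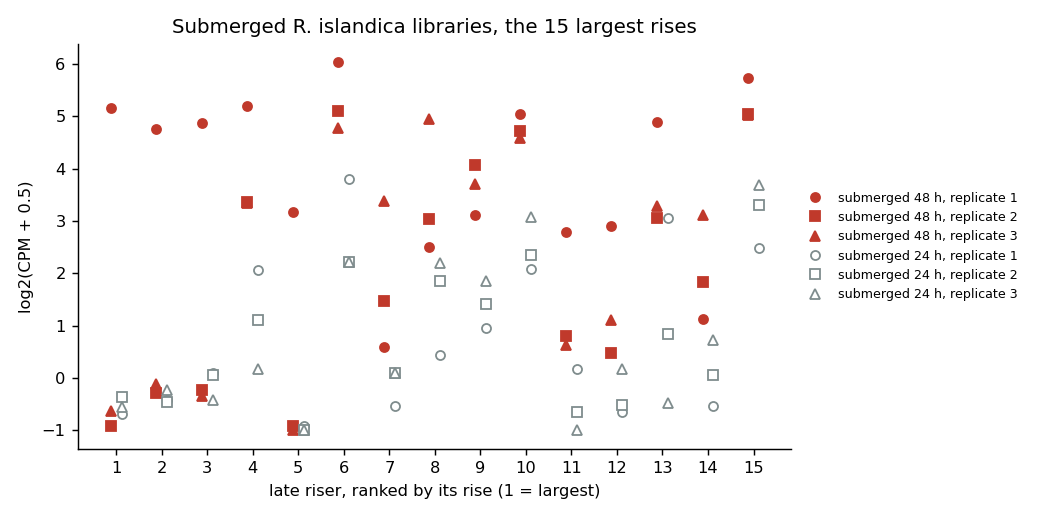
Levels of the 15 late risers with the largest rise in the 6 submerged *R. islandica* libraries, ranked along the horizontal axis, with log2(CPM + 0.5) on the vertical axis. Filled red symbols are libraries at 48 h and open grey symbols libraries at 24 h. For ranks 1, 2 and 3 only replicate 1 at 48 h lay above the rest, at 35.5, 26.6 and 28.9 CPM.

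A check within *R. islandica* chose the genes on 2 replicate numbers and read the rise in the third. With replicate 1 left out, 258 genes were chosen, and their median rise in replicate 1 was 0.73, beside 1.19 in the replicates that chose them. Replicate 2 gave 169 genes with a median rise of 1.09 in the replicate left out, and replicate 3 gave 191 genes with 1.07. In the replicate left out, 93.4%, 96.4% and 98.4% of the chosen genes were above 0, beside 53.1%, 61.8% and 66.5% of all genes tested. A rise of 1 or more was kept by 28.3%, 58.6% and 57.1% of the chosen genes, beside 1.71%, 2.09% and 1.80% of all genes. The direction was thus repeated in nearly all chosen genes and the doubling in fewer, least of all in replicate 1.

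Different starting points were seen on the first day. By the log2 ratio of submerged over control at 24 h in *R. islandica*, 66 late risers were already raised (1 or more), 72 were near the control level (between -1 and 1) and 38 were lowered (-1 or less). These classes are cuts through a continuous range, and no test stands behind them.

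The 66 genes that were already raised went further in the same direction. Their median log2 ratio of submerged over control was 3.42 at 48 h and 1.95 at 24 h. Their median level was 18.0 CPM in submerged leaves at 48 h and 5.82 CPM at 24 h, against 0.514 CPM in controls at 48 h and 0.563 CPM at 24 h. Many were nearly silent in air, since 28 of them stayed below 0.5 CPM in both control groups. All 66 remained at a ratio of 1 or more at 48 h, which follows from the way they were chosen.

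The 72 genes near the control level on the first day were higher against controls on the second, and most left that level. Their median log2 ratio of submerged over control was 1.46 at 48 h and 0.14 at 24 h. Their median level was 11.5 CPM in submerged leaves at 48 h and 3.43 CPM at 24 h, against 3.58 CPM in controls at 48 h and 3.83 CPM at 24 h. By 48 h, 51 of them had a ratio of 1 or more and 21 were still within 1 of 0.

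The 38 genes that were lowered on the first day partly regained their level. Their median log2 ratio of submerged over control was -1.22 at 48 h and -2.75 at 24 h. As a share of the control mean of the same harvest, their level had a median of 41.3% at 48 h and 13.9% at 24 h. At 48 h 23 of them were still at a ratio of -1 or less, 15 lay within 1 of 0, and 4 had reached the control mean or passed it. Without submerged 24 h replicate 1, which held more of these transcripts than the other submerged libraries of that day, the class counted 71 genes.

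**Figure D2:**
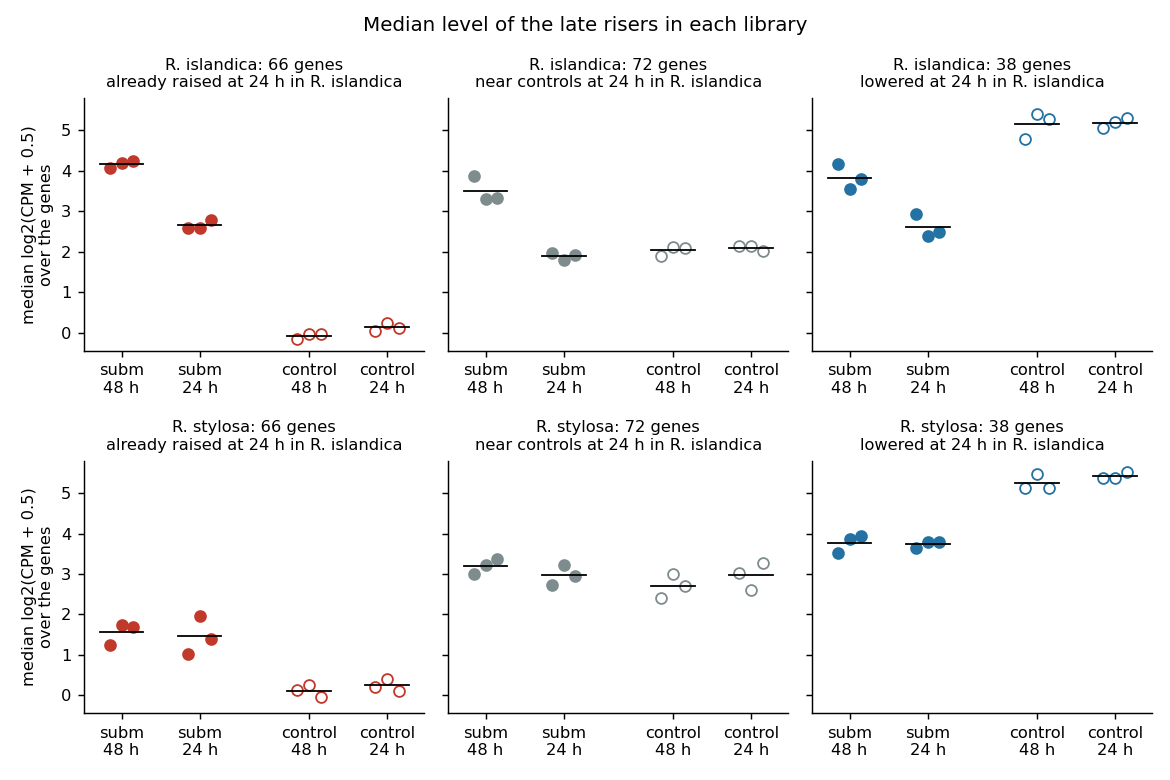
Median log2(CPM + 0.5) over the late risers of each class in each of the 24 libraries, for *R. islandica* (top) and *R. stylosa* (bottom). Filled points are submerged and open points control libraries, and bars are the means of 3 libraries. In the *R. islandica* panels all 3 submerged libraries at 48 h lie above those at 24 h in every class, which the choice of genes favours, whereas in *R. stylosa* they overlap.

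Among the genes already raised, the most abundant one had 426, 427 and 324 CPM in submerged *R. islandica* at 48 h and 241, 140 and 135 CPM at 24 h, against 2.87, 3.04 and 2.72 CPM in controls at 48 h. The harvests under water did not overlap, and both lay far above the controls. In submerged *R. stylosa* at 48 h this gene had 0.365, 0.609 and 0.462 CPM, against 0.0539, 0.0539 and 0.0768 CPM in controls. Its orthogroup (a set of genes descended from 1 ancestral gene) holds a further *R. islandica* gene, and reads may have been split between both.

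The next most abundant gene of this class was high under water in both species. It had 187, 348 and 345 CPM in submerged *R. islandica* at 48 h and 95.2, 145 and 163 CPM at 24 h, against 29.2, 63.1 and 31.3 CPM in controls at 48 h. In *R. stylosa* it had 298, 386 and 501 CPM at 48 h and 184, 232 and 188 CPM at 24 h under water, against 53.6, 98.7 and 58.8 CPM in controls at 48 h. Its libraries at 48 h lay above those at 24 h without overlap in both species. The *R. stylosa* log2 fold change of submerged 48 h over 24 h was 0.95 ± 0.22 (SE, n = 3 per group) at an adjusted p of 0.061 with edgeR's quasi-likelihood test, which misses the threshold of 0.05 used throughout.

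Ranks 3 and 4 of this class again reached high levels in *R. islandica* only. The gene at rank 4 had 237, 270 and 256 CPM in submerged *R. islandica* at 48 h and 141, 87.9 and 92.9 CPM at 24 h, against 0.358, 0.740 and 0.575 CPM in controls at 48 h. No *R. stylosa* library held more than 0.139 CPM of it. The gene at rank 3 had 259, 283 and 242 CPM in submerged *R. islandica* at 48 h. In *R. stylosa* at 48 h it had 1.86, 2.44 and 2.48 CPM under water, against 0.701, 0.728 and 0.819 CPM in controls. Against no change the gene was higher under water there, with a log2 fold change of 1.30 ± 0.30 (edgeR adjusted p = 0.00219). It did not pass the threshold of 1 (adjusted p = 0.228). Whether its transcript is rare in *R. stylosa* or assigned poorly was not tested.

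Among genes near the control level on the first day, the 3 most abundant had the same order of replicates in submerged *R. islandica*. The first had 810, 611 and 488 CPM under water at 48 h and 466, 251 and 200 CPM at 24 h, against 148, 200 and 144 CPM in controls at 48 h and 205, 177 and 151 CPM at 24 h. The second had 594, 457 and 382 CPM at 48 h and 239, 167 and 128 CPM at 24 h, against 150, 240 and 159 CPM in controls at 48 h. The third had 612, 436 and 363 CPM at 48 h and 249, 215 and 175 CPM at 24 h, against 118, 233 and 173 CPM in controls at 48 h. In all 3 genes replicate 1 was the highest submerged library at both harvests, and replicate 3 the lowest. The gene at rank 4 had the reverse order, with 247, 325 and 387 CPM under water at 48 h and 127, 165 and 177 CPM at 24 h.

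In *R. stylosa* the first 3 of these genes did not pass the submergence test with its threshold of 1 at either harvest. The gene at rank 4 passed it at 48 h, with a log2 fold change of 1.69 ± 0.24 (edgeR adjusted p = 0.00867). It had 273, 112 and 233 CPM there under water at 48 h, against 58.9, 45.0 and 50.7 CPM in controls. At 24 h its log2 fold change was 0.77 ± 0.23, which did not pass. Against no change, the first and the second were lower under water at 24 h, with log2 fold changes of -0.55 ± 0.21 (edgeR adjusted p = 0.0445) and -0.62 ± 0.21 (adjusted p = 0.0245), and the third had -0.43 ± 0.23 (adjusted p = 0.130). The first had 207, 192 and 184 CPM in submerged leaves at 48 h and 150, 140 and 151 CPM at 24 h, against 122, 193 and 213 CPM in controls at 48 h and 180, 138 and 233 CPM at 24 h. Its log2 fold change of submerged 48 h over 24 h was 0.38 ± 0.21 (edgeR adjusted p = 0.344), and those of the other 2 were 0.47 ± 0.21 (adjusted p = 0.238) and 0.53 ± 0.23 (adjusted p = 0.229).

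Among the genes lowered on the first day, the most abundant had 292, 225 and 271 CPM in submerged *R. islandica* at 48 h and 56.5, 88.7 and 129 CPM at 24 h, against 612, 778 and 791 CPM in controls at 48 h and 950, 827 and 850 CPM at 24 h. All submerged libraries stayed below all controls. In *R. stylosa* it was at 23.8, 24.99 and 19.3 CPM under water at 48 h and 28.2, 18.4 and 23.9 CPM at 24 h, against 546, 419 and 398 CPM in controls at 48 h. The gene was downregulated in *R. stylosa* with log2 fold changes of -4.61 ± 0.24 at 48 h (edgeR adjusted p = 1.34e-07) and -4.92 ± 0.24 at 24 h (adjusted p = 1.48e-07), and its change between the harvests was -0.07 ± 0.21 (adjusted p = 0.898).

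The next gene of this class showed how far replicate 1 could differ. It had 434, 133 and 115 CPM in submerged *R. islandica* at 48 h, and 207, 46.9 and 30.6 CPM at 24 h. Replicate 1 at 24 h exceeded replicates 2 and 3 at 48 h, so the harvests overlapped although each number had more than doubled. Same-numbered submerged *R. islandica* libraries deviated together, as given with the processing.

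The independent measure was the behaviour of the same genes in *R. stylosa*, whose libraries played no part in the choice. Of the late risers, 165 had enough counts to test there, that is 93.8%, beside 89.2% of the genes tested in *R. islandica*. The 11 others had too few counts, and 14 late risers averaged less than 0.5 CPM in all 4 *R. stylosa* groups. Tests between harvests were made against no change. Tests of submergence required a log2 fold change beyond 1, as the study did for differentially expressed genes.

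The rise was small in *R. stylosa*, where few genes of any kind were called between the submerged harvests. By edgeR 0.297% of all genes were higher and 0.714% lower at 48 h there, against 6.58% and 8.28% in *R. islandica*. The log2 ratio of submerged 48 h over 24 h had a median of 0.13 over the 176 late risers (quartiles -0.09 and 0.54), beside 0.01 over all 19886 genes tested, and 106 of the 176 (60.2%) were above 0, beside 51.7% of all genes. In *R. islandica* the choice itself enlarges the rise, and the replicates left out of the choice, with medians of 0.73 to 1.09, are the nearer measure to set beside 0.13. The gene sets differ, since those medians cover 258, 169 and 191 genes, of which 136, 129 and 145 were late risers. The 0.13 also includes the 14 genes below 0.5 CPM in all 4 *R. stylosa* groups, whose ratios the added 0.5 CPM draws towards 0. Of the late risers, 6 were doubled, or 3.41%, beside 0.357% of all genes, and 3 were halved or lower, or 1.70%, beside 0.759% of all genes.

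By edgeR, 3 late risers were higher and 2 were lower at 48 h than at 24 h in submerged *R. stylosa*, beside 0.297% of all genes called higher and 0.714% called lower. With the replicate number as a block these counts were 5 and 3, beside 0.608% and 1.25% of all genes, and DESeq2 gave 14 and 3, beside 1.77% and 3.27% of all genes. At an unadjusted p under 0.05 the counts were 38 higher and 6 lower, or 23.0% and 3.64% of those tested, beside 8.31% and 11.4% of all genes. Both edgeR counts turned on single libraries. The count of higher genes was 0 without submerged 24 h replicate 1 or 3 or submerged 48 h replicate 1 or 3, 5 without submerged 48 h replicate 2 and 6 without control 24 h replicate 2. The count of lower genes was 0 without any 1 of the submerged 24 h libraries, submerged 48 h replicate 1 or 3, control 24 h replicate 1 or control 48 h replicate 3, and 1 without control 24 h replicate 3 or control 48 h replicate 1 or 2.

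In 43 of the 165 late risers all 3 submerged *R. stylosa* libraries at 48 h were above all 3 at 24 h, or 26.1%, beside 11.9% of all genes tested. In 11 they were all below, or 6.67%, beside 12.5% of all genes. Of the 157 late risers with all *R. islandica* libraries above, which the choice of genes favours, 39 (24.8%) were also all above in *R. stylosa* and 10 (6.37%) all below. Of the 5440 genes with the same *R. islandica* pattern among all tested, 18.2% were all above and 3.75% all below in *R. stylosa*.

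In *R. stylosa* controls no late riser was called between the harvests by edgeR or DESeq2, and no gene at all by edgeR. At an unadjusted p under 0.05 edgeR gave 0 higher and 1 lower, beside 0.714% and 0.649% of all genes. The change from 24 h to 48 h under water, set against that in air, was called for 0 late risers by edgeR, with 24 higher and 4 lower at an unadjusted p under 0.05, beside 1070 and 1613 of all 19886 genes. DESeq2 called 2 higher and 1 lower, beside 0.418% and 1.12% of all genes. Of all genes edgeR called 0% higher and 0.0302% lower in this comparison.

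**Figure D3:**
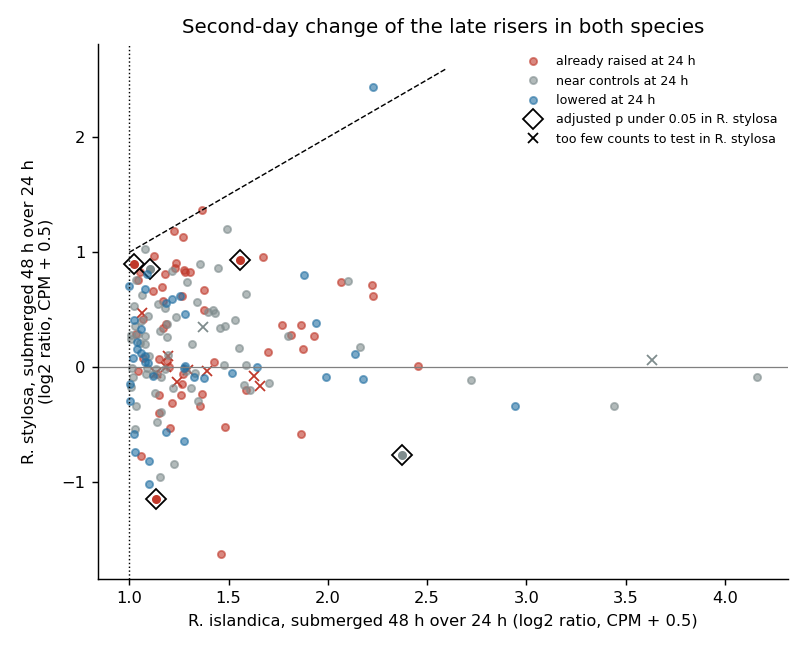
Log2 ratio of submerged 48 h over submerged 24 h (means of 3 libraries, CPM + 0.5) in *R. islandica* (horizontal) and *R. stylosa* (vertical), with 1 point per late riser, coloured by class. The dotted line is the limit of 1 that chose the genes and the dashed line marks equal values in both species, while diamonds are the 5 genes called in *R. stylosa* and crosses the 11 not tested. Most points lie below the dashed line, around a *R. stylosa* median of 0.13.

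The 3 late risers called higher at 48 h in *R. stylosa* had *R. islandica* rises of 1.104, 1.02 and 1.56. The gene with the largest fold change had 6.27, 6.17 and 7.66 CPM in submerged *R. stylosa* at 48 h and 4.02, 2.95 and 3.49 CPM at 24 h, against 0.863, 0.996 and 1.23 CPM in controls at 48 h. Its log2 fold change between the harvests was 0.93 ± 0.18 (edgeR adjusted p = 0.0402). In *R. islandica* it had 5.52, 5.93 and 5.74 CPM under water at 48 h and 2.49, 2.52 and 2.18 CPM at 24 h, against 6.13, 4.08 and 5.05 CPM in controls at 48 h. It was therefore near the control level at 48 h in one species and well above it in the other.

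Another of the 3 had 14.4, 15.5 and 16.7 CPM in submerged *R. stylosa* at 48 h and 7.21, 8.32 and 8.74 CPM at 24 h, with a log2 fold change of 0.92 ± 0.16 (edgeR adjusted p = 0.0263). The last of them had 166, 111 and 173 CPM at 48 h and 73.2, 88.2 and 74.2 CPM at 24 h, with 0.90 ± 0.14 (adjusted p = 0.0206). This last gene was far less abundant in submerged *R. islandica*, with 1.98, 3.63 and 3.63 CPM at 48 h and 0.658, 0.832 and 0.655 CPM at 24 h.

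The largest *R. stylosa* ratio among the late risers, 2.43, was also the largest of all genes tested there. That gene had 5.87, 51.0 and 41.4 CPM in submerged *R. stylosa* at 48 h, against 0.249, 11.4 and 5.33 CPM at 24 h. The harvests overlapped, because replicate 1 was low at both, and the change did not pass the test (log2 fold change 2.50 ± 0.86, edgeR adjusted p = 0.146).

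The direction of the response to submergence, by contrast, was often the same in both species. The study also reported that many of its regulated genes were shared by both species. Whether the late risers shared their direction more often than other responding genes was not tested. In *R. stylosa* 49 late risers were upregulated and 35 downregulated at 48 h, beside 10.5% and 9.26% of all genes, and 37 were upregulated and 34 downregulated at 24 h, beside 7.77% and 4.92% of all genes. Against no change, 75 were higher and 58 lower under water at 48 h, beside 34% and 32.7% of all genes, and 63 were higher and 60 lower at 24 h, beside 28.9% and 27.7%. Upregulated genes lay mostly in the class already raised in *R. islandica*, and downregulated genes in the class lowered there. The comparisons at both harvests use separate libraries, submerged and control alike.

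Of the 57 tested genes already raised in *R. islandica*, 32 were upregulated and 5 downregulated in *R. stylosa* at 48 h, and 26 were upregulated and 2 downregulated at 24 h. As shares these were 56.1% and 8.77% at 48 h, and 45.6% and 3.51% at 24 h. At both harvests 26 were upregulated and 2 downregulated, but the share of all genes called at both was not taken, so nothing is read from these counts. Their median *R. stylosa* log2 ratio of submerged over control was 1.21 at 48 h and 0.90 at 24 h.

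Of the 38 genes lowered in *R. islandica* on the first day, 2 were upregulated and 21 downregulated in *R. stylosa* at 48 h, and 1 was upregulated and 22 downregulated at 24 h. At both harvests 21 were downregulated, again without a share of all genes to set beside it. Their median *R. stylosa* level was 33.9% of the control mean at 48 h and 23.3% at 24 h, beside 41.3% and 13.9% in *R. islandica*. The *R. islandica* values chose these genes for a deep first-day dip and a rise after it, so the species cannot be compared on either from these shares.

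Of the 70 tested genes near the control level, 15 were upregulated and 9 downregulated in *R. stylosa* at 48 h, and 10 were upregulated and 10 downregulated at 24 h. Their shares of 21.4% and 12.9% at 48 h and 14.3% each at 24 h lay between those of the other classes. Over all 165 genes the log2 ratio of submerged over control in both species had Pearson's r = 0.58 and Spearman's rho = 0.55 at 48 h, and r = 0.64 and rho = 0.62 at 24 h. These are descriptions across the late risers, with no value for other genes beside them.

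**Figure D4:**
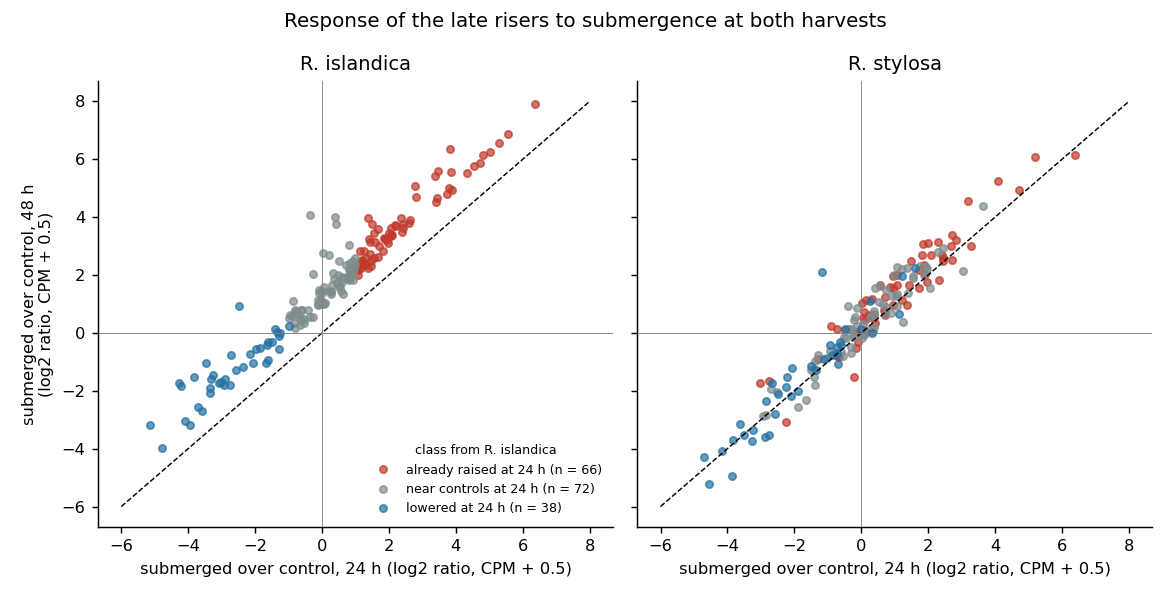
Log2 ratio of submerged over control at 24 h (horizontal) and 48 h (vertical) for the 176 late risers in *R. islandica* (left) and *R. stylosa* (right), coloured by the class given by *R. islandica* at 24 h, with CPM + 0.5. In *R. islandica* the points lie above the dashed line of equal values, which the choice of genes fixes, whereas in *R. stylosa* they lie along it, with 52 of the 66 already raised genes (78.8%) and 5 of the 38 lowered genes (13.2%) above 0 at 24 h, beside 62.6% of all genes tested.

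The levels of the species were also set side by side, with the limit that the genes and their classes were chosen by high submerged *R. islandica* levels, so that a higher level in *R. islandica* under water is partly built in. In submerged leaves at 48 h 24 late risers had at least 10 times the *R. stylosa* level in *R. islandica* (CPM + 0.5), and 4 were at least 10 times lower. The 24 made up 13.6% of the late risers, beside 4.68% of all genes with 2 CPM or more in submerged *R. islandica* at 48 h. Of them, 17 were already raised, 2 near the control level and 5 lowered at 24 h, and 6 averaged over 100 CPM. In controls at 48 h, 10 of the 24 were within a factor of 2 between the species and 1 had at least 10 times the *R. stylosa* level. The median log2 ratio of *R. islandica* over *R. stylosa* in the already raised class was 1.96 under water and -0.08 in air at 48 h. In air, however, the median level of this class was 0.514 CPM in *R. islandica* and 0.648 CPM in *R. stylosa* at 48 h. At such levels the added 0.5 CPM draws ratios towards 0, so ratios near 0 in controls do not show equal levels.

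The identifiers named here follow fixed rules. Both genes named for the clearest separation of the *R. islandica* harvests were already raised at 24 h. Roisl.0018s0439, with a coding length of 1080 bases and alone in its orthogroup, had 22.4, 29.3 and 22.0 CPM in submerged *R. islandica* at 48 h (24.6 ± 4.1, SD, n = 3) and 6.50, 6.93 and 6.47 CPM at 24 h (6.63 ± 0.26). In controls it had 1.22, 1.05 and 1.03 CPM at 48 h and 0.947, 0.570 and 1.15 CPM at 24 h. The 3 groups formed by both submerged harvests and the controls did not overlap.

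In *R. stylosa* Roisl.0018s0439 had 31.1, 25.2 and 33.8 CPM under water at 48 h and 16.2, 33.7 and 23.9 CPM at 24 h, against 7.52, 8.94 and 13.2 CPM in controls at 48 h and 14.6, 6.49 and 16.2 CPM at 24 h. The submerged harvests overlapped, with a log2 fold change of 0.26 ± 0.33 (SE, edgeR adjusted p = 0.706). Submergence gave 1.31 ± 0.34 at 48 h (adjusted p = 0.264 against a threshold of 1) and 0.76 ± 0.33 at 24 h (adjusted p = 1).

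Roisl.0046s1015, with a coding length of 1464 bases and also alone in its orthogroup, was nearly silent in *R. islandica* in air. It had 32.6, 26.0 and 23.5 CPM under water at 48 h (27.4 ± 4.7, SD, n = 3) and 3.76, 4.63 and 7.998 CPM at 24 h (5.46 ± 2.2), and no control library held more than 0.121 CPM. In *R. stylosa* it was present in air, with 22.7, 18.5 and 22.1 CPM under water at 48 h and 10.5, 14.7 and 12.7 CPM at 24 h, against 4.45, 6.11 and 4.53 CPM in controls at 48 h and 7.04, 3.03 and 8.92 CPM at 24 h. The submerged *R. stylosa* harvests did not overlap, but the log2 fold change of 0.71 ± 0.28 did not pass the test (edgeR adjusted p = 0.196). Submergence at 48 h gave 1.78 ± 0.30 (adjusted p = 0.0146), a call that DESeq2 did not make (adjusted p = 0.084).

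The late risers called lower at 48 h in submerged *R. stylosa* are named next, and their opposite direction in *R. islandica* follows from the choice of genes. Roisl.0191s0428, with a coding length of 759 bases in an orthogroup of 3 genes, had 6.61, 7.09 and 6.36 CPM in submerged *R. islandica* at 48 h (6.68 ± 0.37, SD, n = 3) and 3.34, 2.36 and 2.62 CPM at 24 h (2.78 ± 0.51), and at most 0.0750 CPM in controls. In submerged *R. stylosa* it had 1.09, 1.91 and 1.02 CPM at 48 h (1.34 ± 0.49) and 3.48, 3.14 and 4.08 CPM at 24 h (3.57 ± 0.47), against 5.49, 4.52 and 4.50 CPM in controls at 48 h. The harvests did not overlap in either species.

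In *R. stylosa* the log2 fold change of Roisl.0191s0428 was -1.43 ± 0.29 between the submerged harvests (SE, edgeR adjusted p = 0.043), and the call was lost without 9 of the 12 libraries in turn. Submergence lowered it at 48 h, by a log2 fold change of -2.14 ± 0.29 (adjusted p = 0.00155), whereas at 24 h the value was -0.45 ± 0.26 (adjusted p = 1). As its orthogroup holds 2 further genes, reads may have been split among them.

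Roisl.0016s0283, with a coding length of 1524 bases and alone in its orthogroup, was low and uneven in *R. islandica*. It had 1.01, 2.27 and 9.88 CPM under water at 48 h (4.39 ± 4.8, SD, n = 3) and 0.192, 0.562 and 0.573 CPM at 24 h (0.443 ± 0.22), against 0.322, 0.230 and 0.212 CPM in controls at 48 h. The submerged harvests did not overlap, but most of the mean at 48 h came from replicate 3. In *R. stylosa* the gene was abundant in air, with 12.1, 10.95 and 11.3 CPM under water at 48 h and 19.4, 18.2 and 21.7 CPM at 24 h, against 44.2, 77.4 and 56.9 CPM in controls at 48 h and 58.4, 63.9 and 69.3 CPM at 24 h.

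Its *R. stylosa* log2 fold change was -0.81 ± 0.17 between the submerged harvests (SE, edgeR adjusted p = 0.0474), lost without 9 of the 12 libraries in turn. Roisl.0016s0283 was downregulated by submergence in *R. stylosa*, with -2.66 ± 0.17 at 48 h (adjusted p = 2.96e-06) and -1.91 ± 0.17 at 24 h (adjusted p = 0.000232).

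**Figure D5:**
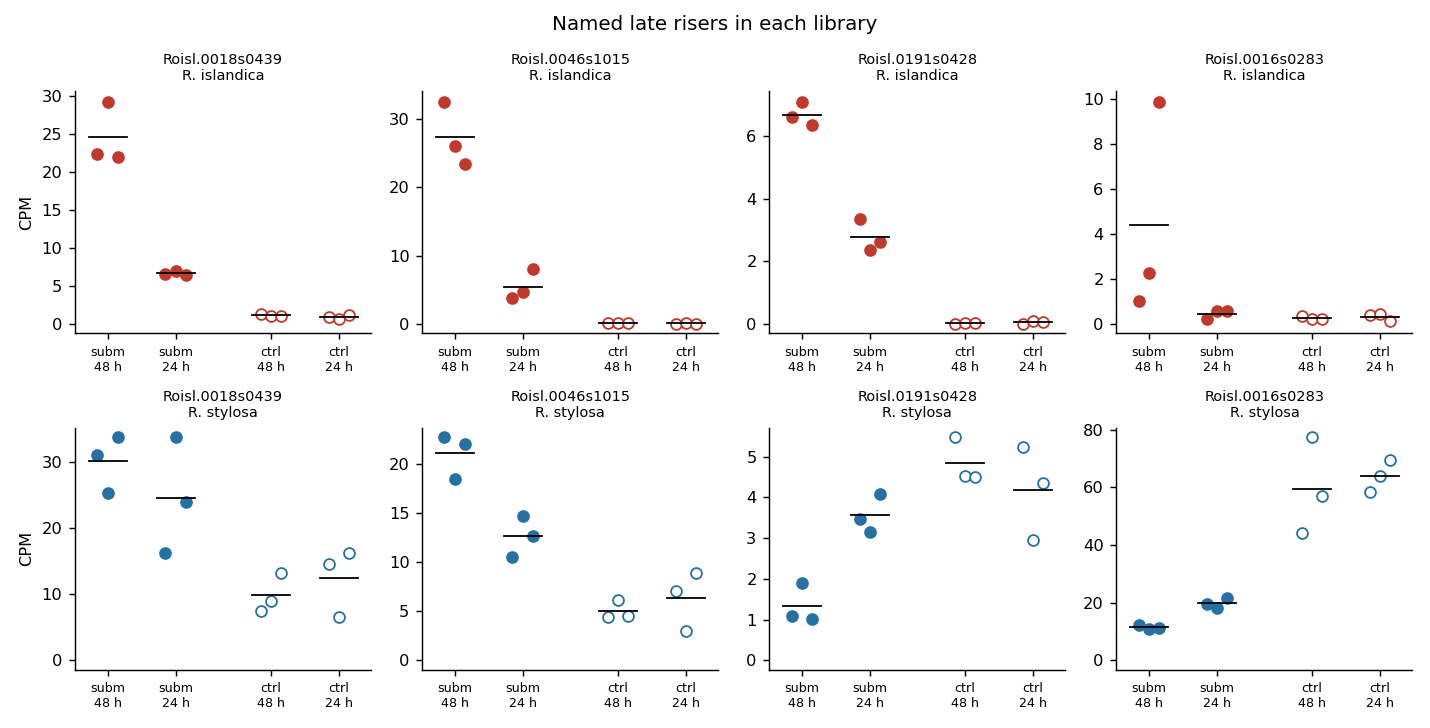
CPM of the 4 named late risers in each of 24 libraries, for *R. islandica* (top, red) and *R. stylosa* (bottom, blue), with filled points for submerged and open points for control libraries and bars for means of 3. The vertical scale differs between panels. The 2 genes on the left are higher under water at 48 h in *R. islandica* (means 24.6 and 27.4 CPM), and the 2 on the right are higher at 48 h in *R. islandica* but lower at 48 h in submerged *R. stylosa* (means 1.34 and 11.5 CPM).

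By the structural features in the files, none of which was tested, the late risers lay close to other genes. They belonged to 174 orthogroups, and 138 of them (78.4%) were alone in theirs, beside 80.9% of the genes tested in *R. islandica*. More than 1 isoform was annotated for 10 (5.68%), beside 7.51%. The coding length had a median of 1041 bases, beside 1104 bases. An orthogroup found in all compared species, as the files mark it, was given for 168 (95.5%), beside 91.3%. The identifiers carried 50 scaffold numbers, and the scaffold with the most late risers held 16 of them (9.09%), beside 8.23% of all genes tested.

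Relatives of the late risers were called about as often as other genes. The same orthogroups held 106 further genes, of which 43 could be tested in *R. islandica*. Of these, edgeR called 3 higher (6.98%) and 4 lower (9.30%) at 48 h than at 24 h under water, beside 6.58% and 8.28% of all genes. The late risers themselves were called higher in 147 of the 175 that could be tested, which the rule favours.

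Late risers with consecutive identifier numbers made up 4 pairs, and in 2 of these both genes belonged to the same orthogroup. The genes of the first of these averaged 42.0 and 7.47 CPM in submerged *R. islandica* at 48 h and 7.26 and 3.05 CPM at 24 h, and at most 0.216 CPM on average in controls. In submerged *R. stylosa* they averaged 1.95 and 2.26 CPM at 48 h and 1.93 and 1.68 CPM at 24 h. The steep *R. islandica* rise of the more abundant gene, 2.45, stood beside 0.01 in *R. stylosa*.

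The genes of the other pair were lowered on the first day. They averaged 18.6 and 2.92 CPM in submerged *R. islandica* at 48 h and 1.99 and 0.255 CPM at 24 h, against 9.60 and 10.9 CPM in controls at 48 h and 13.3 and 14.0 CPM at 24 h. The more abundant gene, whose rise of 2.94 was the fourth largest, had 36.4, 9.83 and 9.64 CPM at 48 h, so that replicate 1 alone was above the controls. In submerged *R. stylosa* both genes were at 0 in all 3 libraries at 48 h and averaged 0.130 and 0.0371 CPM at 24 h, against 6.15 and 3.03 CPM in controls at 48 h. Reads of such neighbouring copies may have been split between them.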

How the data were processed

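Per the study's methods, polyadenylated RNA was sequenced in paired ends, reads were checked with FastQC 0.12.0, and those of both species were assigned to the *R. islandica* transcriptome by kallisto. The authors deposited estimated counts (expected counts) per transcript for each library, without normalization, beside orthogroup and coding length. The number 1 or 2 in each column name was read as the harvest at 24 or 48 h and the Roman numeral as the replicate.

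Isoforms were summed per gene (32703 transcripts, 30646 genes). CPM were taken by library total for the choice of genes, and sums were rounded for tests. With edgeR 4.0.16 in R 4.3.3, filterByExpr, TMM and quasi-likelihood fits were applied to the 12 libraries (4 groups) of each species. Harvests were compared against no change and submergence with control against a log2 threshold of 1 (glmTreat), with Benjamini-Hochberg adjustment over all genes tested and a threshold of 0.05. The fits were tested on simulated data with known changes. The members, classes and lists were chosen with earlier results of these data known.

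Named were the 2 late risers of at least 10 CPM with the widest gap between submerged *R. islandica* harvests, and the 2 called lower in submerged *R. stylosa* with the lowest fold change. Others are given by rank. Alternatives were DESeq2 1.42.0, its size factors in edgeR, no count filter, a replicate block, each library left out, and other limits for the choice of genes. Deviations from group means of same-numbered libraries correlated at 0.11 to 0.16 between submerged *R. islandica* harvests, at 0.11 to 0.38 between submerged and control *R. islandica* at 24 h, and at 0.13 to 0.46 between *R. stylosa* control harvests, and not in every pair elsewhere. *R. stylosa* plants were propagated separately for each replicate. The p-values measure only the spread between these libraries. No pair of replicates agreed within sampling noise (chi-square per degree of freedom 11.4 to 153). The control library of *R. stylosa* at 48 h, replicate 1, stood apart, with 16.2% of its counts in 10 genes.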

Additional observations from a re-analysis of the deposited data

Results flagged for a closer look

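In 10 late risers every submerged library at 48 h lay above every one at 24 h in *R. islandica*, a side that the choice of genes favours, and below every one in *R. stylosa*. Over the 165 tested late risers 6.67% were all below in *R. stylosa*, beside 12.5% of all genes tested there. Among genes all above in *R. islandica* the share all below in *R. stylosa* was 6.37% of 157 late risers, beside 3.75% of 5440 genes. Of the 10, 2 were called in *R. stylosa*. Roisl.0191s0428 had a *R. stylosa* log2 fold change of -1.43 between submerged harvests, beside a *R. islandica* rise of 1.13. Roisl.0016s0283 had a *R. stylosa* log2 fold change of -0.81, beside a *R. islandica* rise of 2.37. The difference between the species was not tested for either gene.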

How the results depend on the processing

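With at least 10 CPM at 48 h in place of 2, 106 late risers were found, 37 of them near the control level and 25 lowered at 24 h. A pseudocount of 1 CPM gave 144, TMM scaling 134, medians in place of means 213 (141 of them shared) and a control limit of 1 gave 182. Left-out libraries or replicate numbers gave 166 to 258 late risers, of which 55 to 90 were already raised, 63 to 104 near the control level and 32 to 71 lowered.

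For submerged *R. stylosa*, 48 h against 24 h, a log2 threshold of 1 gave 0 higher and 0 lower. DESeq2 gave 14 higher (1.77% of all genes), its size factors in edgeR 1 lower (0.644%), and a fit of the 6 submerged libraries 5 higher (0.310%). With the replicate block 5 were higher (0.608%), and no other count changed by over 1.5 times. Left-out libraries gave 0 to 6 higher and 0 to 3 lower. In the comparison with the change in air DESeq2 gave 2 higher (0.418% of all genes) and 1 lower (1.12%), and left-out libraries 0 to 2 higher and 0 lower.

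For submergence in *R. stylosa*, tests against no change gave 75 up and 58 down at 48 h (34% and 32.7% of all genes) and 63 up and 60 down at 24 h (28.9% and 27.7%). Left-out libraries gave 45 to 50 up and 31 to 37 down at 48 h, and 28 to 41 up and 30 to 37 down at 24 h. The fall of Roisl.0191s0428 was lost with the 6 submerged libraries alone (adjusted p = 0.068) and that of Roisl.0016s0283 with DESeq2's size factors (adjusted p = 0.054). Over left-out libraries their adjusted p ran from 0.015 to 0.148 and from 0.035 to 0.140. The causes were not tested. At 3 libraries a group, low counts in *R. stylosa* left 11 late risers untested, and a p that misses the threshold does not show equal levels.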
